A study of Arabidopsis thaliana with 12 samples.

Results

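Rosette gene expression was compared between MYO-OX, an Arabidopsis thaliana line whose name stands for overexpression of MYO1, a homolog of myotubularin, and Columbia-0 wild type. The 8 arrays of these 2 genotypes were chosen by their sample titles from the 12 arrays of a series that also holds the mutant atx1. RNA came from vegetative rosettes, and each genotype was measured watered and under water deficit, with 2 biological replicates per group, so that 4 MYO-OX arrays stood against 4 wild-type arrays. The watered plants of either genotype were 4 weeks old and stayed on water. From deficit plants of the same age water was withheld, and they were taken at a relative water content of 65%. The cultivar is labelled for wild type only. The promoter of the MYO-OX transgene, the number of independent lines and whether plants were pooled are not given in the sources used here, so effects of 1 line or insertion and of MYO1 itself cannot be told apart. The comparison asked for 1 difference between the genotypes over both water states.

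Myotubularins are phosphatases of phosphoinositides, the phosphorylated membrane lipids that mark endosomes and vacuoles and take part in vesicle traffic and autophagy. In Arabidopsis the MYO1 protein, also called MTM1, has been linked to the level of a phosphoinositide that binds the trithorax-type histone methyltransferase ATX1. Rosettes that lose water activate genes for protective late embryogenesis abundant proteins and dehydrins, largely through abscisic acid, and reduce transcripts for growth and photosynthesis. The array tables used here name no probe set for MTM1, its homolog MTM2 or ATX1. Their levels were not analysed here, and the overexpression was not checked at that gene.

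The arrays separated by water state and not by genotype. The first principal component of the 8 arrays held 76.4% of the variance and ran from -111.75 to -64.38 in the watered arrays and from 71.43 to 95.94 in the deficit arrays. For 6 of the 8 arrays the best correlated array belonged to the other genotype in the same water state, such as wild type under deficit replicate 1 with MYO-OX under deficit replicate 2 (r = 0.991 across probe sets, which are not independent). One array stood apart: watered MYO-OX replicate 1 correlated at 0.928 with its replicate and lay furthest from the additive model, with a residual SD of 0.497 against 0.201 to 0.389 on the other arrays. The spiked hybridization controls averaged 9.42 and 8.33 in watered MYO-OX, 9.61 and 8.78 in MYO-OX under deficit, 8.79 and 8.17 in watered wild type, and 8.85 and 8.42 in wild type under deficit (log2 signal, replicates 1 and 2). The difference of the 3' and 5' GAPDH controls was 1.09 and 0.44, 1.04 and 0.75, 0.87 and 0.59, and 0.56 and 0.58 in the same order. Replicate 1 carried the higher hybridization signal in each group, and the means of both measures were higher in MYO-OX in each water state.

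**Figure D1:**
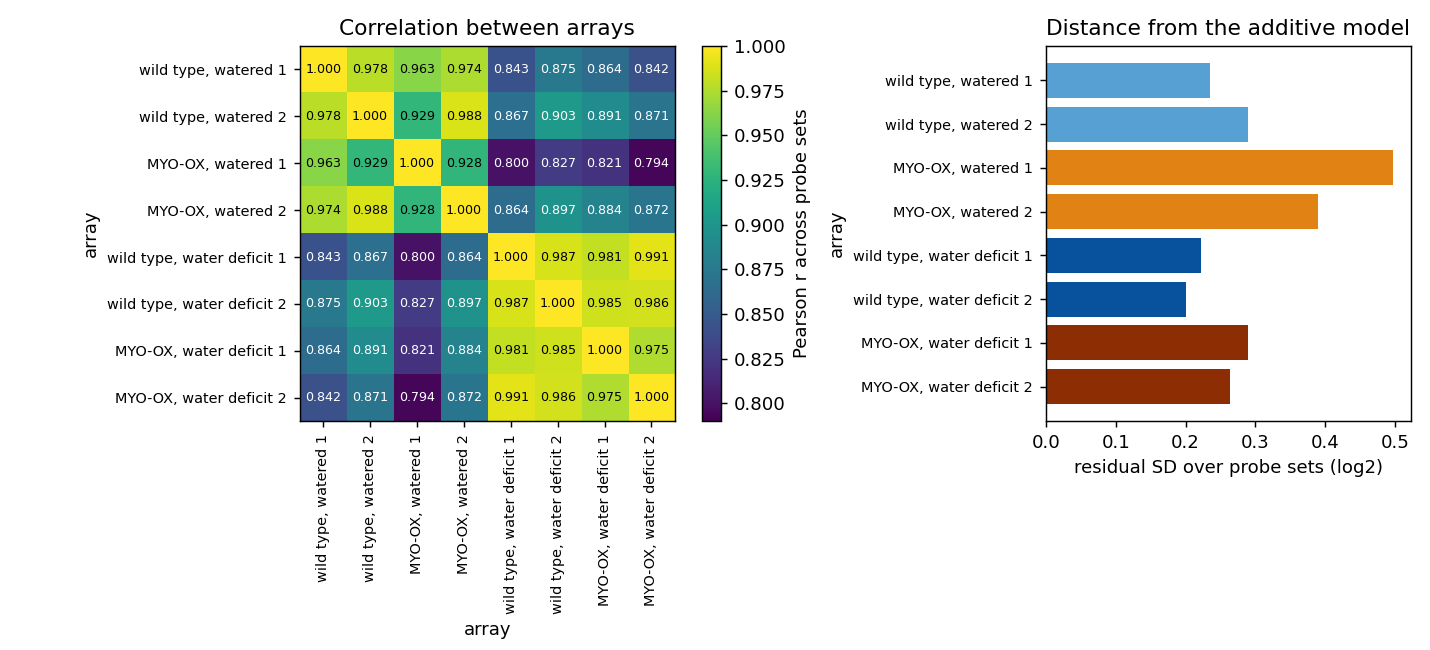
Left, Pearson correlation between the 8 arrays over the 22746 probe sets tested, by array on both axes. Right, residual SD of each array around the additive model of genotype and water state, in log2 units. Correlations between genotypes within a water state are as high as those between replicates, and watered MYO-OX replicate 1 has the longest bar at 0.497.

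No gene passed the test between MYO-OX and wild type. A linear model with a term for genotype and a term for water state was fitted with limma, and 0 of 22746 probe sets (0%) had an adjusted p under 0.05, the smallest adjusted p being 0.609. At an unadjusted p under 0.05 there were 397 probe sets (1.75%), 242 higher and 155 lower in MYO-OX, where uniform p-values would give 1137. In the same fit the water-deficit term was called for 8368 probe sets (36.8%). The root mean square difference over all probe sets was 0.219 on the log2 scale between genotypes and 1.119 between water states.

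The interval of each difference shows what the 8 arrays could have missed. The median SE of a difference was 0.193, and its 95% interval reached 0.453 to either side at the median. For 19026 probe sets, or 83.6%, this interval lay wholly within a 2-fold difference in either direction, and without watered MYO-OX replicate 1 the share was 90.4%. For the other probe sets a 2-fold difference between the genotypes was not excluded by the interval. A difference of at least 2-fold was measured for 43 probe sets (0.189%), 27 higher and 16 lower in MYO-OX, of which 19 are listed with a single gene. On 20 of the 43 the MYO-OX and wild-type arrays did not overlap in either water state, against 641 (2.82%) of all probe sets. The 43 were picked by size on the same arrays, which favours separation, so this count is no further evidence of a difference. Without watered MYO-OX replicate 1 there were 32 higher and 18 lower at 2-fold, and 22 of these were among the 43.

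The 16 genes described next were taken by a rule, the 8 higher and the 8 lower genes with the smallest p among those whose MYO-OX arrays all lay on the same side of the wild-type arrays within each water state. Among all probe sets, 641 (2.82%) met this condition on overlap, 356 higher (1.57%) and 285 lower (1.25%). A further 583 were separated in both states but in opposite directions. The 16 are therefore the top of a ranking in which nothing passed, and their values are given as measurements. In bulk tissue a difference in the number of cells of a type and in RNA per cell cannot be told apart.

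Among the 8 genes on the higher side, QQS had the largest difference. QQS (AT3G30720), a gene specific to Arabidopsis thaliana that has been linked to leaf starch content, gave 8.27 and 7.24 in watered MYO-OX against 6.14 and 6.06 in watered wild type. Under deficit it gave 7.10 and 6.67 against 5.83 and 6.27. All 4 MYO-OX arrays lay above all 4 wild-type arrays, by a mean of 1.25 (SE 0.285, 95% interval 0.57 to 1.92, 2.37-fold). QQS had no called water response, with a change of -0.46 under deficit (limma adjusted p = 0.267).

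The auxin signalling gene IAA29 (AT4G32280) encodes a repressor of the Aux/IAA family and was measured at 8.96 and 8.83 in watered MYO-OX and at 7.70 and 7.88 in watered wild type. Under deficit the values were 4.81 and 4.77 against 4.49 and 4.46. The replicates of each group were close, and the signal fell under deficit in both genotypes, with a water effect of -3.71 (limma adjusted p = 2.17e-05). The genotype difference was 0.71 over both states (SE 0.177, 95% interval 0.29 to 1.12), 1.098 in watered plants and 0.31 under deficit. Under deficit the probe set was dim, at the 29.8th percentile in wild type.

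The gene with the smallest p on the higher side was AT4G19530, at 8.46 and 8.43 in watered MYO-OX against 7.34 and 7.64 in wild type, and at 7.32 and 7.50 against 6.73 and 6.62 under deficit. Its difference was 0.85 (SE 0.121, 95% interval 0.56 to 1.13). AT3G62550 was bright on every array, with 11.23 and 11.37 against 9.98 and 10.25 in watered plants and 12.04 and 12.25 against 11.77 and 11.47 under deficit, a difference of 0.86 (SE 0.177). These loci carry no symbol in the tables used. The other 4 genes on this side, AT2G36470, AT1G75860, AT5G54090 and AT1G22330, differed by 0.53, 0.72, 0.54 and 0.60. AT2G36470 was dim, at the 30.8th percentile of all probe sets in watered wild type.

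On the lower side the largest difference belonged to AT2G15020. Its arrays read 5.40 and 5.25 in watered MYO-OX against 8.33 and 7.25 in watered wild type, and 5.58 and 4.96 against 6.19 and 6.67 under deficit. Every MYO-OX array lay below every wild-type array, by a mean of 1.81 or 3.51-fold (95% interval of the difference -2.65 to -0.97, SE 0.359). The wild-type arrays spread more than those of MYO-OX in watered plants, and the difference was -2.46 there and -1.16 under deficit.

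PUB25 (AT3G19380), which encodes a U-box ubiquitin ligase, had the smallest p of the 16. It was measured at 5.25 and 5.72 in watered MYO-OX against 6.88 and 6.48 in wild type, and at 4.11 and 4.59 against 5.53 and 5.69 under deficit. The difference was nearly the same in both states, -1.19 watered and -1.26 under deficit, and -1.23 over both (SE 0.175, 95% interval -1.64 to -0.81, 2.34-fold). Its unadjusted p was 0.000179 in limma, which did not pass after adjustment over all probe sets. In MYO-OX under deficit PUB25 was dim, at the 25.3rd percentile of all probe sets.

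AFR (AT2G24540), an F-box protein gene of far-red light signalling, read 8.68 and 7.74 in watered MYO-OX and 9.59 and 9.07 in wild type. Under deficit it read 9.70 and 9.73 against 10.47 and 10.43. The difference of -0.93 (SE 0.231, 95% interval -1.47 to -0.39) stood beside a water effect of 1.32 in the other direction (limma adjusted p = 0.00405). UGT74D1 (AT2G31750), for a glucosyltransferase that acts on auxin-related compounds, differed by -0.69 (SE 0.176), at 7.57 and 8.09 against 8.93 and 8.51 in watered plants and 7.54 and 7.34 against 7.94 and 7.91 under deficit. Both genes separated the genotypes in each water state because the rule asked for it.

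AT2G19650 and AT1G64500 differed by -1.15 (SE 0.199) and -1.02 (SE 0.185), and AT2G13290 and AT3G14920 by -0.47 and -0.51. Over the 16 genes the water term, which the rule did not use, was called for 11 in limma, against 36.8% of all probe sets. The same residual spread enters the test of either term, so the choice by p between genotypes was not independent of the water calls. The SE of the genotype difference ran from 0.1 for AT2G36470 to 0.359 for AT2G15020, against a median of 0.193 over all probe sets. None of the 16 was called when any 1 array was left out or under the other alternative settings. None changed direction either, but the rule fixed this in advance for fits without 1 array and within 1 water state.

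**Figure D2:**
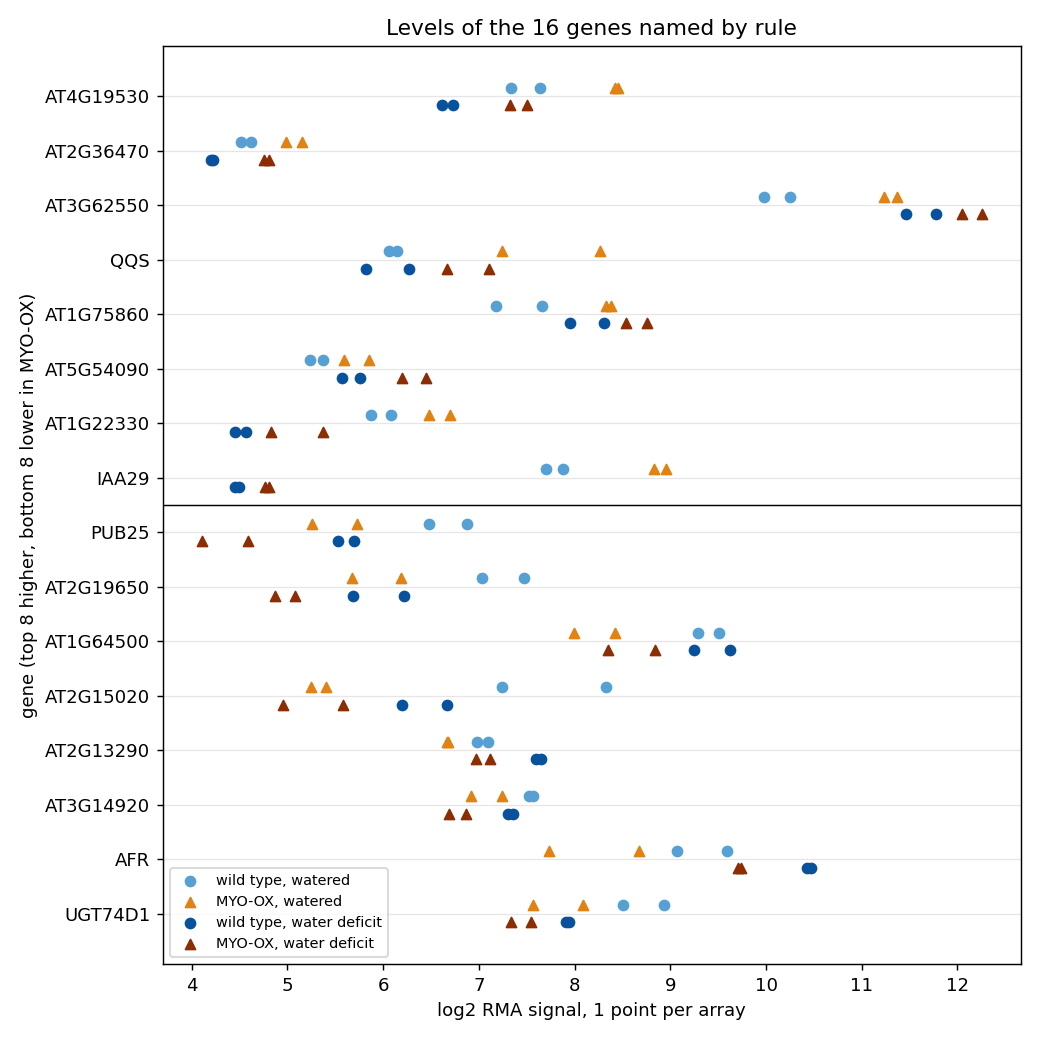
Log2 signal of the 16 genes, 1 point per array, with watered arrays on the upper and deficit arrays on the lower line of each gene. Circles are wild type and triangles MYO-OX. The genotypes do not overlap within a water state for any of the 16 because the rule asked for it. The shift between water states exceeds the one between genotypes for IAA29 (-3.71 against 0.71).

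The next question was whether 1 effect could stand for both water states. The difference of the MYO-OX effect between deficit and watered plants was called for 0 of 22746 probe sets (0%) in limma, with 290 at an unadjusted p under 0.05 and a smallest adjusted p of 1.00. The unadjusted count was 3846 without watered MYO-OX replicate 2 (smallest adjusted p 0.158), 3593 when the GAPDH value entered as a covariate (0.253) and 1078 without MYO-OX under deficit replicate 2, with 0 called in each. Within watered plants alone 601 probe sets had an unadjusted p under 0.05, and within deficit plants alone 149, with 0 called in either. Of the 16 named genes, 11 had the larger difference in watered plants, among them QQS (1.66 watered and 0.83 under deficit). The interaction was not called for any of the 16. The watered MYO-OX group also held the array that stood apart, and its part in the larger watered differences was not tested. Over both states, 12 of the 16 genes had a smaller difference without it, such as QQS at 0.96, and 4 a larger one, such as AFR at -1.08.

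**Figure D3:**
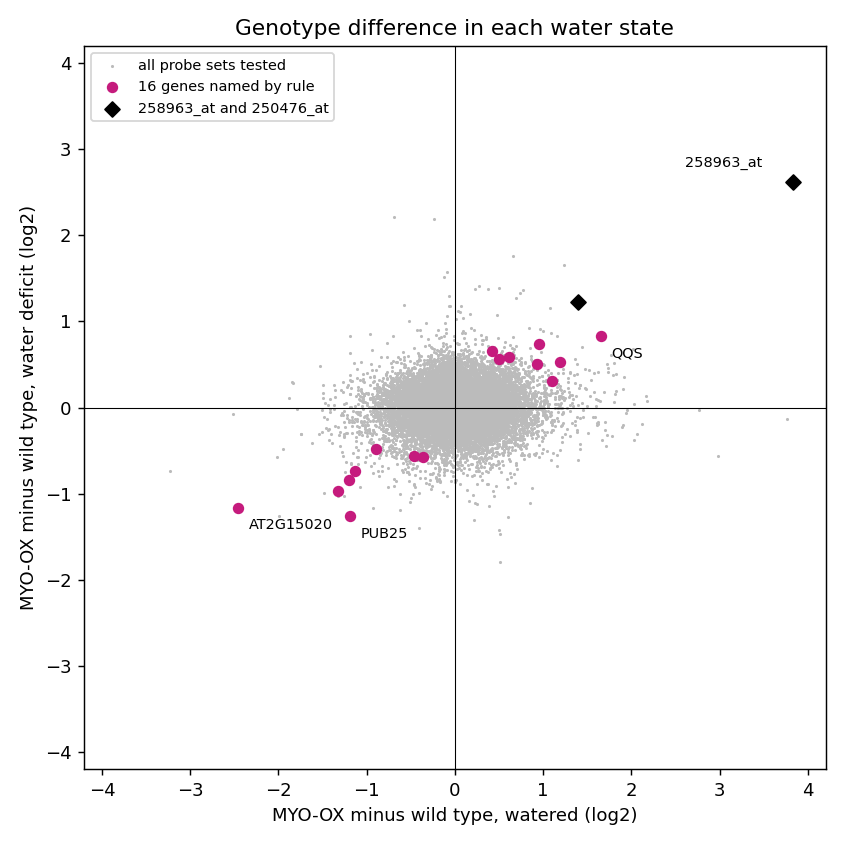
Difference of MYO-OX minus wild type on the log2 scale in watered plants (horizontal axis) and under deficit (vertical axis), 1 point per probe set. The 16 named genes lie in the quadrants of equal sign because the rule asked for it, AT2G15020 at -2.46 and -1.16, and 258963_at lies alone at 3.83 and 2.62.

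Outside the rule, 258963_at and 250476_at were singled out after their values were seen, since the first had the largest difference and the second the smallest p of all probe sets. Neither is listed with a gene in the tables used. Probe set 258963_at read 8.38 and 10.07 in watered MYO-OX against 5.10 and 5.68 in watered wild type, and 10.002 and 11.27 against 8.39 and 7.64 under deficit. Within each water state both MYO-OX arrays lay above both wild-type arrays. The difference was 3.23 or 9.37-fold (SE 0.494, 95% interval 2.07 to 4.39). It had a called water effect of 2.02 (limma adjusted p = 0.0161), and on the atx1 arrays it read 4.74 and 6.33 watered and 5.57 and 7.09 under deficit. With the GAPDH 3'-5' difference as a covariate the genotype difference was 3.77 and passed the test (limma adjusted p = 0.0285), the only probe set called under any setting.

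Probe set 250476_at was steadier. It read 6.90 and 6.58 in watered MYO-OX, 5.48 and 5.21 in watered wild type, 7.16 and 6.87 in MYO-OX under deficit and 5.68 and 5.90 in wild type under deficit. The difference of 1.31 (SE 0.141, 95% interval 0.98 to 1.64) had the smallest unadjusted p in limma, 2.68e-05, with an adjusted p of 0.609. Its atx1 arrays lay below wild type, from 4.33 to 5.05.

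Among probe sets with a single gene, the largest difference on the higher side was that of AT5G62360, which the rule left out because its groups overlapped under deficit. It read 10.39 and 9.27 in watered MYO-OX against 5.99 and 6.15 in watered wild type, and 4.02 and 5.13 against 4.53 and 4.90 under deficit. The watered groups were far apart and the deficit groups were not, but the interaction was not called. The difference of AT5G62360 over both states was 1.81, with an SE of 0.79 and a 95% interval of -0.04 to 3.67.

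**Figure D4:**
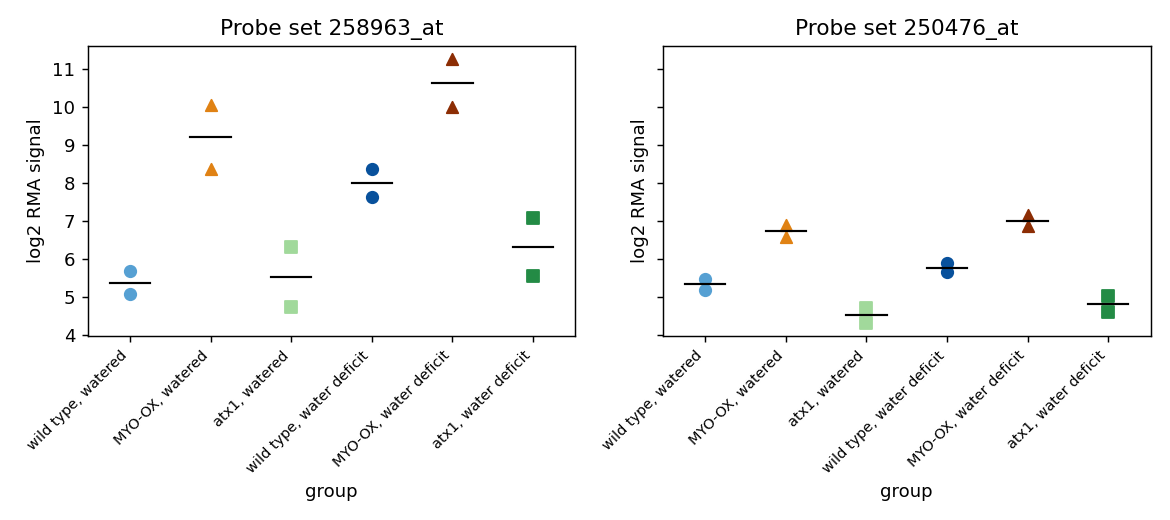
Log2 signal of probe sets 258963_at and 250476_at on all 12 arrays, 1 point per array with the group mean as a line, by genotype and water state. MYO-OX lies above wild type in each water state for both, with the wider gap for 258963_at.

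Gene lists written from general knowledge covered phosphoinositides, membrane traffic, stress and growth. Of 404 listed genes, 61 had a probe set named for them alone, so a list is described only by its measured part. No member of any list was called, against 0% of all probe sets, and each list is given by its counts and median difference. Over all probe sets the median difference was 0.02, and 56.4% of differences were above 0.

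Phosphoinositide metabolism had 5 measured members of 49, with 3 differences above 0, 2 below and a median of 0.00 (-0.48 to 0.51), which was 0.20 without watered MYO-OX replicate 1. The member with the smallest p was AT3G55940, at 6.05 and 5.79 in watered MYO-OX against 5.47 and 4.78 in wild type and at 9.31 and 9.08 against 9.07 and 8.89 under deficit. Its difference was 0.51 (SE 0.203), beside a water effect of 3.56 (limma adjusted p = 3.81e-05). FRA3, for an inositol polyphosphate phosphatase, differed by 0.01 (SE 0.417). RBL, the 1 measured gene of the trithorax and polycomb list, differed by -0.30 (SE 0.26), and by -0.02 without watered MYO-OX replicate 1. ARA6, a Rab GTPase of plant endosomes, differed by 0.29 (SE 0.177), and by 0.155 without that array.

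Autophagy genes had mostly positive differences. Of the 12 measured members of 24, 10 had a difference above 0, with a median of 0.30 and a range of -0.20 to 0.68, none under an unadjusted p of 0.05. All 9 measured ATG8 genes were among the 10. ATG8E, for a ubiquitin-like protein of the autophagosome membrane, read 10.39 and 9.30 in watered MYO-OX against 9.07 and 8.66 in wild type, and 9.24 and 9.66 against 9.37 and 8.79 under deficit. Its groups overlapped under deficit, and the difference was 0.68 (SE 0.292, 95% interval -0.01 to 1.37). The mean over the 12 genes was 8.85 and 8.23 in watered MYO-OX, 8.31 and 8.09 in watered wild type, 9.73 and 9.78 in MYO-OX under deficit and 9.75 and 9.32 in wild type under deficit, so the genotypes overlapped in both states. The highest watered value came from the array that stood apart, and without it the median was 0.15, with 11 members above 0.

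Among dehydration and cold genes the differences ran from -0.45 to 0.76. Of 6 measured members of 26, 3 had an unadjusted p under 0.05 against 1.75% of all probe sets, and the median difference was 0.38, or 0.52 without the array that stood apart and 0.22 without its replicate. LTI30, a dehydrin gene, read 9.98 and 9.79 in watered MYO-OX against 8.67 and 8.36 in wild type, a difference of 1.37. Under deficit it read 13.78 and 14.03 against 14.02 and 13.51, and the groups overlapped. Its difference over both states was 0.76 (SE 0.277), and the interaction was not called. COR15B, for a chloroplast protective protein, read 8.29 and 8.58 against 8.19 and 7.08 watered and 9.39 and 9.30 against 8.93 and 8.95 under deficit, and did not overlap in either state. COR15A, its close homolog, differed by 0.37 (SE 0.156). The late embryogenesis abundant genes LEA18 and LEA4-5 had differences of -0.08 (SE 0.181) and -0.45 (SE 0.386), although their water effects were the largest of the list, 6.63 and 6.72.

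Defence genes gave single members with larger differences. PDF1.2, the jasmonate and ethylene marker that encodes a plant defensin, read 9.24 and 7.72 in watered MYO-OX against 7.67 and 6.41 in wild type and 5.34 and 4.60 against 4.34 and 4.19 under deficit, with no overlap within a state and a difference of 1.07 (SE 0.426, 95% interval 0.07 to 2.07). THI2.1, a thionin gene induced by jasmonate, differed by -0.18 (SE 0.484), and JMT, for jasmonate methyltransferase, by -0.41 (SE 0.347). WRKY53, a transcription factor of senescence and defence, read 6.88 and 7.21 against 8.45 and 7.15 watered and 4.998 and 5.59 against 5.90 and 6.53 under deficit. Its difference was -0.84 (SE 0.311, 95% interval -1.57 to -0.11) with overlap in watered plants. SAG101, a partner in salicylate defence, differed by 0.35 (SE 0.208).

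The 7 measured expansin and xyloglucan endotransglucosylase genes had a median difference of 0.12 (-0.28 to 0.42). Of the 7, 6 were called for water, against 36.8% of all probe sets. The median was 0.04 without the array that stood apart and -0.08 without MYO-OX under deficit replicate 1. XTH16 had the smallest p, with a difference of 0.42 (SE 0.274) against a water effect of -4.79. The expansin-like gene EXLA1, outside the lists and singled out after its values were seen, differed by 1.14 (SE 0.372). The difference was 1.92 in watered plants and 0.36 under deficit, beside a water effect of -0.25, and the interaction was not called. The 5 nuclear photosynthesis genes differed by a median of -0.11 with 2 above 0, and by 0.02 with 4 above 0 without watered MYO-OX replicate 1. RCA, for Rubisco activase, read 10.81 on watered MYO-OX replicate 1 and from 12.44 to 13.72 on the other 7 arrays. Its difference of -0.58 (SE 0.583) was 0.11 without that array.

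Flavonoid and heat shock genes had negative medians and glucosinolate genes a positive one. Of 5 flavonoid genes 4 had a negative difference, with a median of -0.55 that ran from -0.79 without MYO-OX under deficit replicate 1 to -0.11 without MYO-OX under deficit replicate 2. UGT78D1, for a flavonol rhamnosyltransferase, had the smallest p of the 5 at -0.65 (SE 0.336). The mean over the 5 was 8.74 and 8.54 in watered MYO-OX against 9.19 and 8.30 in wild type, and 8.66 and 7.28 against 8.21 and 9.08 under deficit, so that the genotypes overlapped. For the 5 heat shock genes the median was -0.19. It ran from -0.26 without watered MYO-OX replicate 1 to -0.12 without wild type under deficit replicate 1. The smallest p belonged to AT1G53540 at -0.37 (SE 0.17), and the 1 member above 0 was AT4G21870 at 0.63 (SE 0.808). AT4G21870 read 10.81 and 7.45 in watered MYO-OX against 8.15 and 6.68 in watered wild type. Without watered MYO-OX replicate 1 the differences of all 5 genes were below 0. Glucosinolate genes, 3 in number, had a median of 0.13, from -0.10 to 0.36 without wild type under deficit replicate 1 or 2, with UGT74B1, a glucosyltransferase of glucosinolate synthesis, at -0.35 (SE 0.351) and BCAT4, for an aminotransferase of methionine chain elongation, at 0.14 (SE 0.322). GI, the clock gene GIGANTEA and the 1 measured gene of its list, differed by -0.07 (SE 0.452), STZ, a zinc finger repressor gene of early stress responses, by -0.32 (SE 0.325) and PPDK, for a pyruvate dikinase of senescing leaves, by -0.14 (SE 0.414).

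Plastid-encoded genes were read as a group from their place in the annotation. Of 69 genes, 62 had a positive difference, against 56.4% of all probe sets. The median was 0.31, with a range of -0.22 to 0.94. An unadjusted p under 0.05 in limma was reached by 4 of the 69, against 1.75% of all probe sets. psbE, for a subunit of cytochrome b559 in photosystem II, had the smallest p, at 12.49 and 11.95 in watered MYO-OX against 11.54 and 11.67 in wild type and 11.46 and 11.63 against 11.19 and 11.26 under deficit (difference 0.46, SE 0.152). The mean over the 69 was 9.79 and 9.92 in watered MYO-OX and 9.34 and 9.50 in watered wild type, and 9.03 and 8.73 in MYO-OX and 7.94 and 9.31 in wild type under deficit. The genotypes separated in watered plants and overlapped under deficit, where the wild-type replicates themselves differed by more than the genotypes. Without watered MYO-OX replicate 1, 57 of the 69 were above 0, against 53.6% of all probe sets, with a median of 0.34. The median was 0.09 without wild type under deficit replicate 1, the lowest of the 8 list means, and 0.63 without its replicate 2.

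**Figure D5:**
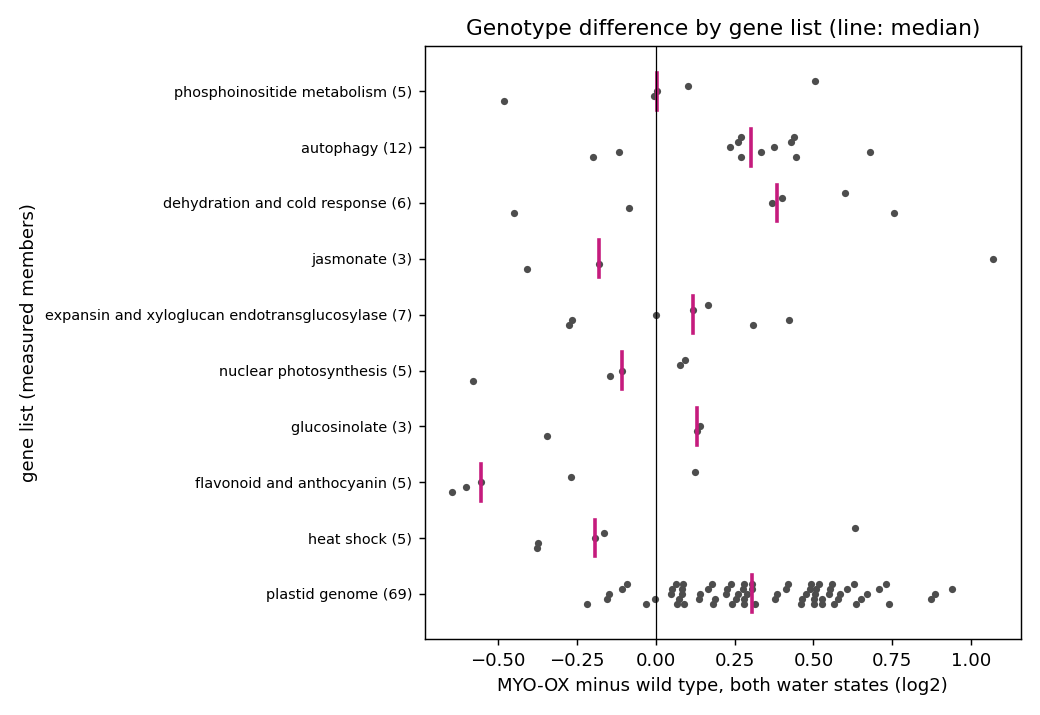
Difference of MYO-OX minus wild type over both water states on the log2 scale, 1 point per gene, for each list with at least 3 measured members, with the median as a line. The medians run from -0.55 for flavonoid genes to 0.38 for dehydration and cold genes, and no point passed the test.

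The tissue label was checked against marker genes. The 5 nuclear photosynthesis genes lay between 12.37 and 13.00 in wild type and between 12.31 and 12.78 in MYO-OX. No floral or seed marker had a named probe set, and of the root markers only EXPA7, an expansin of root hairs, was measured, at 4.36 in wild type and 4.54 in MYO-OX, low on every array but MYO-OX under deficit replicate 1 at 5.38. The guard cell list gave AT1G22690 at a difference of 0.40 (SE 0.286) and FMA, a transcription factor of guard cell fate, at -0.11 (SE 0.116). Whether other organs contributed to the differences between genotypes was not tested beyond these genes.

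The atx1 arrays give a scale for the named genes, although they are compared with the same wild-type arrays, so that the comparisons are not independent. In the same additive model on the atx1 and wild-type arrays limma called 2608 probe sets (11.5%). Under deficit the atx1 arrays read 10.03 and 9.66 for hybridization controls and 1.74 and 1.19 for the GAPDH difference, above every wild-type and MYO-OX array. Watered atx1 arrays read 9.53 and 8.25, and 0.96 and 0.48. Whether this entered the atx1 differences was not tested. QQS, at 1.25 in MYO-OX, differed by -2.09 in atx1 (limma adjusted p = 0.000871), where it read 3.92 and 3.73 watered and 4.26 and 4.04 under deficit. PUB25 differed by -1.23 in MYO-OX and by -1.71 in atx1 (limma adjusted p = 0.00456). AFR differed by -0.93 in MYO-OX and by -2.53 in atx1 (limma adjusted p = 0.00346), and AT2G15020 by -1.81 in MYO-OX and by -2.11 in atx1 (limma adjusted p = 0.026). For AT4G19530 the values were 0.85 and -1.60 (limma adjusted p = 0.0391), and for IAA29 0.71 and -1.21 (limma adjusted p = 0.226). AT1G64500 differed by -1.02 in MYO-OX and by -2.31 in atx1 (limma adjusted p = 0.00899), AT3G62550 by 0.86 and 1.296 (limma adjusted p = 0.016), and UGT74D1 by -0.69 and -0.76 (limma adjusted p = 0.0141). The other 7 of the 16 were not called in atx1, with differences from -0.87 for AT2G19650 to 0.63 for AT5G54090.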

How the data were processed

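The log2 signals used were deposited by the authors, who made them from Affymetrix ATH1 arrays by robust multi-array averaging (RMA), per the submitters' processing notes. The version of RMA and the arrays normalized together are not given in the sources used here. Arrays carry no counts, and their number limits the precision. Of 22810 probe sets, 64 controls (names starting AFFX) were set apart and 22746 tested. The array annotation listed 14016 probe sets, 13513 with 1 gene and 503 with several; 13436 were matched to a TAIR10.1 locus, and 8730 tested probe sets have no gene name here. For 146 genes with more than 1 probe set, the brightest on average stood for the gene.

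Additive models (genotype plus water state, 5 residual and 2.25 prior degrees of freedom) were fitted to the 8 arrays in R 4.3.3 with limma 3.58.1. A model with 1 mean per group gave the effects within a water state and their difference. P values were two-sided, Benjamini-Hochberg adjusted over all probe sets tested, and called at an adjusted p under 0.05. The fit was tested on simulated data with independent errors of equal spread on every array. The measured arrays had unequal residual SDs, so the simulation does not stand for them. Values with n = 2 per group are given per array.

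Genes were named by a rule: called genes first, and, since none was called, the 8 per direction with 1 gene, no overlap within either water state and the smallest p, plus the list member with the smallest p. The comparison, members and lists were chosen with earlier results of these data known. Alternatives tried were a replicate block, median centring, repeated quantile normalization, the dimmest 40% left out, a trended robust prior, all 12 arrays, 1 mean per group, each water state alone, 1 probe set per gene, hybridization and GAPDH covariates, and each array left out. A crossed block and counts without watered MYO-OX replicate 1 were added after the data were seen. Replicate numbers do not pair the arrays by the labels.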

Additional observations from a re-analysis of the deposited data

How the results depend on the processing

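The count of called probe sets between MYO-OX and wild type was 0 under 20 of 21 alternatives and 1 with the GAPDH covariate. Unadjusted calls under them ran from 149 to 899, and over the fits that left out 1 array from 261 to 785 (0 called in each). The difference between water states had 0 calls under all 17 of its alternatives, with 111 to 3846 at an unadjusted p under 0.05, the highest without watered MYO-OX replicate 2 (smallest adjusted p = 0.158). With the replicate number as a block, limma called 0 probe sets for the genotype and 0 for the difference between states. Deviations of same-numbered arrays correlated at 0.561 between the watered groups and at -0.286 between the deficit groups. The sign thus differed between the water states, and a pairing by number was not tested beyond the blocks given here. A block within water states with the deficit numbers crossed called 0, with 899 unadjusted.

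Some values of genes never called changed sign. With the hybridization covariate RCA was 0.059, GI 0.566, PPDK 0.372 and EXPA7 -0.048. With the GAPDH covariate GI was 0.376 and PPDK 0.243. Under deficit alone GI was 0.062, STZ 0.148 and PPDK 0.102, and in watered plants alone EXPA7 was -0.201. Without 1 array in turn, RCA ran from -1.055 to 0.106, UGT74B1 from -0.672 to 0.007, GI from -0.393 to 0.311, PPDK from -0.461 to 0.271 and EXPA7 from -0.131 to 0.334. Leaving out watered MYO-OX replicate 1 turned RCA, UGT74B1, GI and PPDK, wild-type watered replicate 2 turned GI (0.26) and PPDK (0.104), and MYO-OX under deficit replicate 1 turned GI (0.002) and EXPA7. The causes were not tested. Each group had 2 arrays. EXPA7 was a dim probe set, at 4.36 in wild type and 4.54 in MYO-OX, with 5.38 on MYO-OX under deficit replicate 1.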
